A study of Rattus norvegicus with 16 samples.

Results

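The genes described here are the lectin-like and inhibitory receptors of leukocytes, measured in the plantaris muscle of rats whose load had been raised by surgery. They were chosen by symbol from the array's annotation: every probe cluster listed for exactly 1 gene whose symbol begins with Clec and a digit, Lilr, Ly49, Klr and a letter, Siglec, Pilra or Pilrb, Cd300, Cd200r or Trem. This gave 77 of the 14557 genes tested, each with 1 cluster. By name they fall into 36 myeloid receptors, 20 natural killer family receptors (Klr and Ly49, without Klrg2), 8 genes of the Clec2 family and 13 others. The others are a mixed set that holds secreted lectins, genes known mainly from vessels, platelets or liver, and Clec12b and Klrg2, although Clec12b encodes an inhibitory receptor also described on macrophages. The myeloid class is what remained once the other classes were set by symbol. A place in it does not show that a gene is chiefly myeloid. The choice went by symbol alone, though it was made with earlier results of these data known.

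The animals were Sprague Dawley rats labelled as retired breeders. Muscles taken at days 3, 7 and 28 after surgery had been overloaded by removing the Achilles tendons on both sides, which puts the gastrocnemius and soleus out of use and leaves the plantaris to carry their load. Muscles of day 0 were labelled as controls without overload. Each day had 4 Rat Gene 2.1 ST arrays, 16 in all. The labels name no sham operation, so load and surgery cannot be told apart, and no label says that the numbered replicates were separate animals. The p-values therefore cover the variation among these arrays alone, part of which may be technical.

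Many of these receptors work in pairs of opposite sign. Inhibitory members carry a tyrosine motif in their own tail that recruits the phosphatases Ptpn6, Ptpn11 and Inpp5d, whereas activating members have short tails and borrow a signal from the adaptors Tyrobp, Fcer1g or Hcst. Macrophages, monocytes, neutrophils and dendritic cells use the Clec4, Lilr, Trem, Siglec, Pilr and Cd300 families to sense glycans, lipids and dying cells, and natural killer cells use the Klr and Ly49 families to read class I molecules and Clec2 proteins on their neighbours. Macrophages enter injured or overloaded muscle within days and take part in clearing debris and rebuilding fibres.

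The array values were log2 expression after robust multi-array averaging. Medians over all 36685 clusters lay between 3.19 and 3.41 on the 16 arrays, and those over the 14557 genes tested between 4.16 and 4.71. Arrays of the same day correlated at 0.985 to 0.99 across genes. Such correlations largely follow the brightness of each gene and cannot show that no array stood apart. In bulk muscle, fewer cells of a type and less RNA per cell cannot be told apart. Of the 77 receptors, 61 had a day 0 mean under the lowest array median of that day, here called dim. Among them were 27 of the 36 myeloid, 20 of the 20 natural killer, 6 of the 8 Clec2 and 8 of the 13 other genes, and a difference against such a low value may understate the change. Each probe cluster has its own brightness, so a gap in level between genes or classes was not read as a gap in transcript amount.

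At day 3 most of the myeloid receptors had risen, and so had a minority of the natural killer family. Of the 77 receptors, 38 rose and 1 fell at day 3 against day 0, where 21.7% of all genes tested rose and 19.6% fell (limma, Benjamini-Hochberg adjusted p under 0.05 over 14557 genes, two-sided). Myeloid receptors made up 28 of the 38 and the single fall, natural killer receptors 6, and the Clec2 and other genes 2 each. The median log2 difference was 1.50 over the 36 myeloid receptors and 0.16 over the 20 natural killer receptors, against -0.05 over all genes tested. The classes differ in brightness, with 11 of the 20 natural killer and 8 of the 36 myeloid genes dim in all 4 groups. Changes in such genes may be understated, so the gap between the classes may be too. When each array was instead centred on the median of all tested genes, the all-gene median at day 3 moved to -0.51. The myeloid median then moved to 1.04 and the natural killer median to -0.30, which still lay above that of all genes. The natural killer median was 0.004 with centring on the brighter 50% of genes and 0.22 with cyclic loess. Its sign was thus negative under all-gene centring and positive under the other scalings.

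By day 7 fewer receptors differed from day 0. At day 7, 25 receptors rose and 2 fell, where 16.9% of all genes rose and 14.9% fell. The rises comprised 15 of 36 myeloid, 7 of 20 natural killer, 1 of 8 Clec2 and 2 of 13 other genes. The myeloid median was 0.54 and the natural killer median 0.19, against -0.04 over all genes, and with each array centred on all tested genes these became 0.18, -0.17 and -0.40. At day 28, 9 receptors rose and 0 fell, where 6.29% of all genes rose and 2.8% fell. These 9 were 6 myeloid genes (Clec4a3, Lilrb4, Clec4a1, Clec10a, Trem2 and Siglec5), Klra2 of the natural killer family, and Clec11a and Clec3b, and all 9 had also risen at days 3 and 7. The day 28 median was 0.17 for myeloid and 0.13 for natural killer receptors, against -0.00 over all genes. Under that centring these became -0.08, -0.12 and -0.26, so both class medians changed sign but stayed above that of all genes. Both stayed positive with arrays centred on the brighter 50% of genes (0.11 and 0.07) or adjusted by cyclic loess (0.11 and 0.12). The 3 comparisons share the day 0 arrays.

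**Figure D1:**
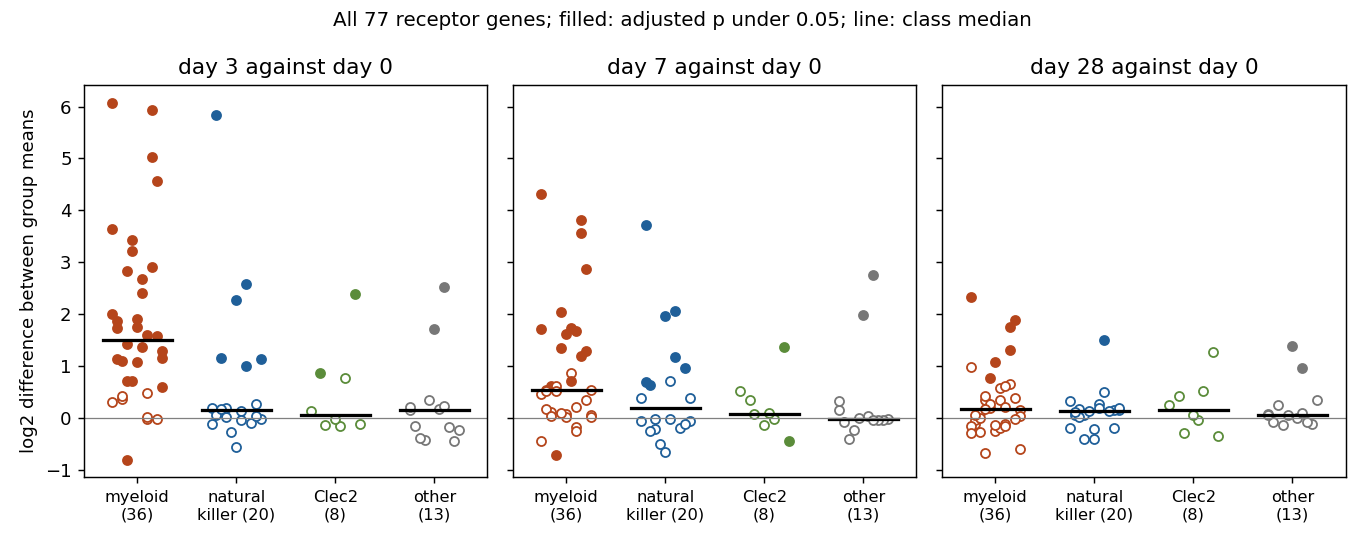
Log2 difference between group means (vertical axis) of each of the 77 receptor genes at days 3, 7 and 28 against day 0. Each point is 1 gene, filled where the adjusted p was under 0.05, and the black line is the median of the class. The myeloid median falls through 1.50, 0.54 and 0.17, while the natural killer median stays between 0.13 and 0.19.

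The day of the highest mean was also counted by class, without a test and without the same count over all genes. The mean was highest at day 3 for 31 of 36 myeloid receptors, at day 7 for 3, at day 0 for 2 and at day 28 for 0. In the natural killer family the highest mean fell at day 0 for 1 gene, at day 3 for 9, at day 7 for 5 and at day 28 for 5. The class median of the myeloid means was 3.06, 4.73, 3.78 and 3.30 at days 0, 3, 7 and 28, and that of the natural killer means was 2.22, 2.53, 2.44 and 2.06. The genes dim in all 4 groups were 11 of 20 natural killer genes and 8 of 36 myeloid genes. In no comparison did 12 of the 20 natural killer and 5 of the 36 myeloid genes pass. The highest day of such genes may reflect the spread of the arrays alone, so the counts do not show a difference in timing.

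**Figure D2:**
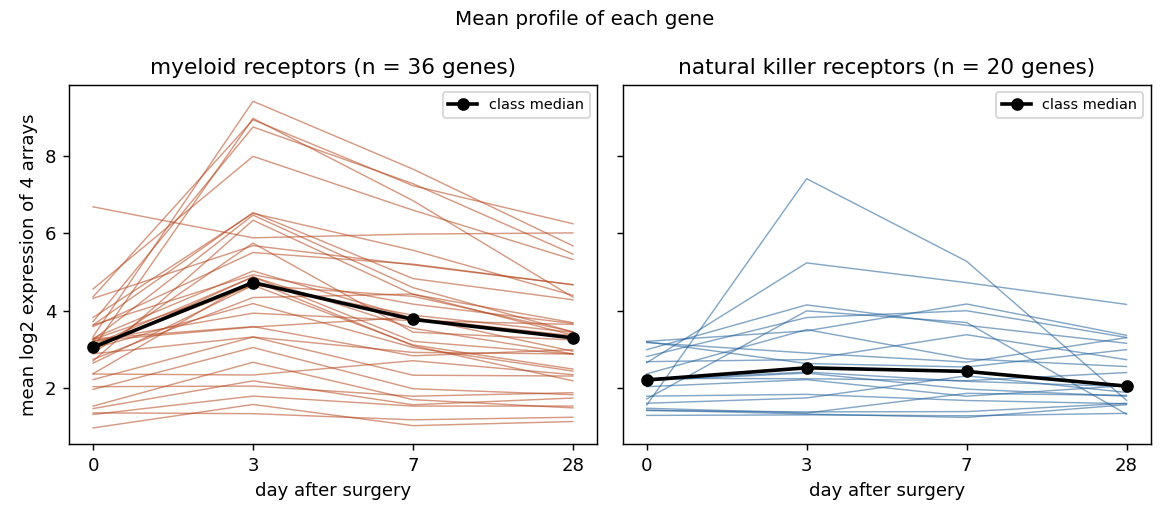
Mean log2 expression of 4 arrays (vertical axis) by day after surgery (horizontal axis, days spaced evenly) for 36 myeloid receptors (left) and 20 natural killer receptors (right). Each thin line is 1 gene and the black line is the class median, which peaks at 4.73 at day 3 in the myeloid panel and lies between 2.06 and 2.53 in the natural killer panel.

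In the RefSeq table of assembly GRCr8 all 77 receptors matched by gene ID. All 20 natural killer family genes and all 8 Clec2 genes lie on chromosome 4, as do 10 of the 36 myeloid receptors. Promoter stretches, from 250 bases before to 50 after the start, were held for 62 of the 77. They were searched on both strands for GAGGAA, which reads TTCCTC on the other strand and is the purine-rich core bound by PU.1 and other ETS factors, and for TGTGGT, which reads ACCACA on the other strand and is the core bound by Runt factors. The cores do not contain each other, and both were picked with the results known. GAGGAA was present in 26 of 31 myeloid promoters (83.9%), 8 of 17 natural killer promoters (47.1%), 1 of 7 Clec2 promoters and 2 of 7 others, against 27.4% of 11721 promoters of tested genes. TGTGGT was present in 13 of 31 myeloid (41.9%) and 3 of 17 natural killer (17.6%) promoters, against 14.9%. Related genes share promoter sequence, so these are not independent sites, and a match is not evidence of binding.

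The promoters of the pair of genes that moved most in each class are shown 5′ to 3′, with GAGGAA or its reverse complement in capitals. They are Clec4a3 (chr4:157886508-157886807 on the plus strand), Lilrb4 (chr1:78853203-78853502 on the minus strand), Ly49si1 (chr4:165286127-165286426 on the minus strand) and Klra2 (chr4:166716753-166717052 on the minus strand), all in GRCr8 from RefSeq.
Clec4a3: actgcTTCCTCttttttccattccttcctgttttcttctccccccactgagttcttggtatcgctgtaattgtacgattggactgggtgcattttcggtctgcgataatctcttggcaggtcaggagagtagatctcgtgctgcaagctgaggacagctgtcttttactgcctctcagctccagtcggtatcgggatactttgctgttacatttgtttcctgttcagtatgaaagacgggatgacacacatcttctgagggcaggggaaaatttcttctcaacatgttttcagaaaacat
Lilrb4: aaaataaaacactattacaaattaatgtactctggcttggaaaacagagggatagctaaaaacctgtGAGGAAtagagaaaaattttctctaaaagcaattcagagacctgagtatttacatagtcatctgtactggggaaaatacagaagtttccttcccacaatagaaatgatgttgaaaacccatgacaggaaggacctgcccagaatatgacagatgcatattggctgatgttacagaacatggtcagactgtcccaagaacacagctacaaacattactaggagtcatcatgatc
Ly49si1: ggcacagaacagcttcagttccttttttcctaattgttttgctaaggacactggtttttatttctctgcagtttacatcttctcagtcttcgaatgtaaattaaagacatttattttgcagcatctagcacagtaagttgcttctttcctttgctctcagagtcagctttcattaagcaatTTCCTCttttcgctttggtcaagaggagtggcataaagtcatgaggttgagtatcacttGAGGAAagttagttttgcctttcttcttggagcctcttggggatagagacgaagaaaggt
Klra2: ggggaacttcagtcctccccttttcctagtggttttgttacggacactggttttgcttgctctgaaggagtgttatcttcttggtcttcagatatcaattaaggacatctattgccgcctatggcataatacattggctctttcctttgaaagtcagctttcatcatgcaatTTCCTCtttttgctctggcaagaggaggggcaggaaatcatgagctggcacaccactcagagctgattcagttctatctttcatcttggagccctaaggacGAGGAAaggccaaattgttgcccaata
Clec4a3 and Lilrb4 each held 1 match and Ly49si1 and Klra2 held 2 each. In a global alignment the Ly49si1 and Klra2 stretches shared 68.5% of aligned positions, whereas Clec4a3 and Lilrb4 shared 48.5%.

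The myeloid Clec lectins had the highest family median at day 3. Of 11 such genes, 9 rose at day 3 (median 2.40), 7 rose at day 7 (median 0.61) and 3 rose at day 28 (median 0.20). Among all genes tested, 21.7%, 16.9% and 6.29% rose on those days. Clec4a3, Clec4a1, Clec4a2 and Clec4a belong to the group of dendritic cell immunoreceptors, whose founding member is inhibitory and binds glycans. The Clec4a3 arrays read 2.84, 3.16, 3.52 and 3.83 at day 0, 9.20, 9.77, 9.15 and 9.51 at day 3, 7.97, 7.83, 7.35 and 7.49 at day 7, and 6.21, 5.05, 5.64 and 5.82 at day 28. The 4 days occupied separate ranges, highest at day 3 and lowest at day 0. The Clec4a3 difference against day 0 was 6.07 ± 0.24 (SE) at day 3, a 67.3-fold ratio with adjusted p = 1.49e-11 (limma), then 4.32 ± 0.24 at day 7 and 2.34 ± 0.24 at day 28 (limma adjusted p = 1.16e-05). Clec4a1 read 3.47, 4.02, 3.98 and 3.41 at day 0, 8.63, 8.77, 8.52 and 9.07 at day 3, 7.40, 7.53, 6.99 and 7.22 at day 7, and 5.95, 4.47, 5.76 and 5.69 at day 28. Its day 28 arrays all lay above its day 0 arrays, though 1 of them was well below the other 3. Clec4a1 rose by 5.03 ± 0.26 at day 3, by 3.56 ± 0.26 at day 7 and by 1.75 ± 0.26 at day 28 (limma adjusted p = 3.33e-04 for the last).

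Clec4a2, the mouse counterpart of which is an inhibitory receptor, rose at days 3 and 7. It read 3.52, 3.08, 3.47 and 2.96 at day 0, 6.42, 6.40, 6.23 and 6.84 at day 3, 4.86, 5.17, 3.85 and 4.52 at day 7, and 3.75, 3.74, 3.19 and 3.15 at day 28. Days 3 and 7 each lay wholly above day 0, while day 28 overlapped it. The day 3 difference was 3.21 ± 0.24, the day 7 difference 1.34 ± 0.24 and the day 28 difference 0.20 ± 0.24 (limma adjusted p = 1.02e-08, 3.63e-04 and 0.689 in that order). Clec4a rose by 1.87 ± 0.19 at day 3 and 0.54 ± 0.19 at day 7 and did not pass at day 28 (-0.12). Clec10a, the galactose-type lectin of macrophages and dendritic cells, rose at all 3 days. Its arrays read 4.25, 4.78, 4.33 and 4.09 at day 0, 8.73, 9.14, 8.94 and 8.93 at day 3, 7.29, 7.49, 6.97 and 7.17 at day 7, and 6.54, 5.90, 6.33 and 6.23 at day 28. Every overload day lay above day 0 with no shared range, and the differences were 4.57 ± 0.17, 2.87 ± 0.17 and 1.89 ± 0.17 at days 3, 7 and 28 (limma adjusted p = 2.79e-06 at day 28).

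The other myeloid lectins passed at day 3, at day 7 or at both, except Clec4b2, which was dim throughout and passed in no comparison. Clec4d and Clec4e, the paired sensors of microbial glycolipids also called MCL and Mincle, rose by 2.84 ± 0.39 and 1.15 ± 0.31 at day 3 and did not pass at day 7 (0.54 and 0.02). Clec5a, a Tyrobp-coupled receptor of monocytes and macrophages, rose by 2.40 ± 0.18 at day 3 and 0.72 ± 0.18 at day 7. Clec12a, an inhibitory receptor for uric acid crystals, rose by 1.75 ± 0.22 at day 3, with 0.09 at day 7. Clec9a, the receptor by which cross-presenting dendritic cells detect the actin of dead cells, passed at day 7 (0.61 ± 0.18, limma adjusted p = 0.0142) and not at day 3 (0.36, limma adjusted p = 0.125), and the difference between days 7 and 3 did not pass (0.25).

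All 5 leukocyte immunoglobulin-like receptors rose at day 3 (median 1.13), 2 of 5 rose at day 7 and 1 of 5 at day 28. The shares of all genes that rose were 21.7%, 16.9% and 6.29% on those days. Lilrb4, an inhibitory receptor of myeloid cells, moved most. Its arrays read 2.64, 2.92, 3.33 and 3.27 at day 0, 8.80, 9.07, 8.65 and 9.35 at day 3, 7.40, 7.01, 6.38 and 6.61 at day 7, and 4.65, 4.21, 4.34 and 4.22 at day 28. No 2 days overlapped. Lilrb4 differed from day 0 by 5.93 ± 0.22 at day 3, a 61-fold ratio, by 3.81 ± 0.22 at day 7 and by 1.32 ± 0.22 at day 28 (limma adjusted p = 8.27e-12 and 7.92e-04 at days 3 and 28). Lilra5, an activating receptor, rose by 1.58 ± 0.24 at day 3 and 1.30 ± 0.24 at day 7. Lilrb1, Lilrb2 and Lilrc2 were dim in all 4 groups and rose at day 3 by 1.08, 1.13 and 0.71.

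Of the 5 myeloid Trem genes, 4 rose at day 3 (median 1.60), where 21.7% of all genes rose. Trem2, the lipid and apolipoprotein receptor of tissue macrophages and microglia, rose at all 3 days. It read 4.73, 4.77, 4.72 and 4.04 at day 0, 7.65, 8.24, 7.79 and 8.28 at day 3, 6.66, 6.59, 6.39 and 6.76 at day 7, and 5.56, 5.27, 4.94 and 5.54 at day 28. The days did not overlap, and 1 day 0 array was below the other 3. The Trem2 differences were 3.42 ± 0.19 at day 3, 2.03 ± 0.19 at day 7 and 0.76 ± 0.19 at day 28 (limma adjusted p = 3.74e-10, 4.25e-07 and 0.0188 in that order). The day 28 call was lost without replicate 4 of day 0 (0.59) or replicate 1 of day 28 (0.68), and with each array centred on all tested genes.

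Trem1, which amplifies inflammatory signals in monocytes and neutrophils, spread widely at day 0. Its arrays read 2.59, 3.92, 4.27 and 3.75 at day 0, 6.48, 6.62, 6.57 and 6.48 at day 3, 4.74, 5.71, 4.21 and 4.68 at day 7, and 4.13, 4.00, 4.21 and 4.80 at day 28. Day 3 lay clear above the other days, while days 0, 7 and 28 shared values. Trem1 rose by 2.90 ± 0.32 at day 3 and 1.20 ± 0.32 at day 7, and its 0.65 ± 0.32 at day 28 did not pass (limma adjusted p = 0.230). Treml2 rose by 1.60 ± 0.20 at day 3 and 1.69 ± 0.20 at day 7, and Treml4 rose at day 3 alone among these comparisons (0.71 ± 0.25). Trem3 did not pass against day 0 at any day, and was lower at day 7 than at day 3 by 0.75.

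Cd200r1, the inhibitory receptor for CD200, rose at days 3 and 7. It read 3.75, 1.92, 2.94 and 2.20 at day 0, 5.95, 6.56, 6.04 and 6.82 at day 3, 3.75, 5.30, 4.56 and 4.09 at day 7, and 3.95, 3.50, 3.80 and 3.54 at day 28. Day 0 spread widely, overlapped day 28 and met the lowest day 7 array, while day 3 stood above all of them. Cd200r1 differed from day 0 by 3.64 ± 0.36 at day 3, by 1.72 ± 0.36 at day 7 and by 0.99 ± 0.36 at day 28, the last with limma adjusted p = 0.0930, and that day 28 difference passed at 1.34 without replicate 1 of day 0. Its neighbour Cd200r1l was dim throughout and passed in no comparison.

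**Figure D3:**
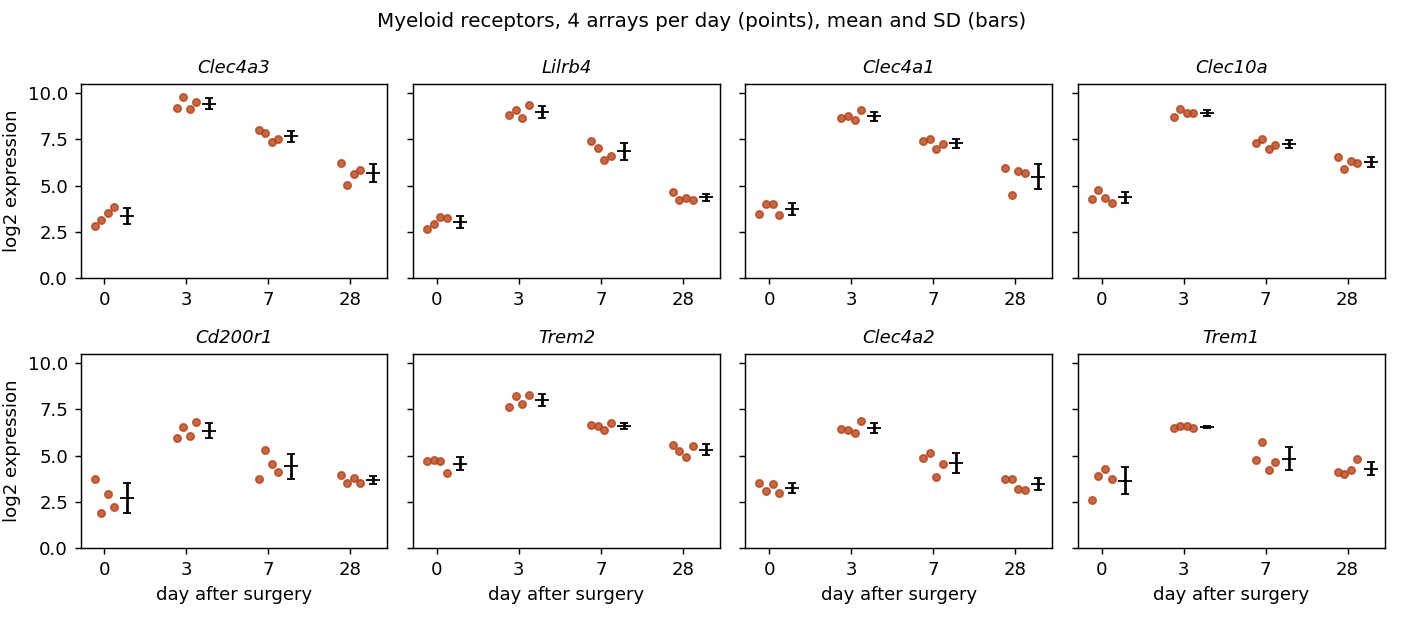
Log2 expression (vertical axis) by day after surgery (horizontal axis, days spaced evenly) for the 8 myeloid receptors with the largest differences against day 0. Points are the 4 arrays of a day and bars give mean and SD; for Clec4a3 the day means are 3.34 ± 0.43, 9.41 ± 0.29, 7.66 ± 0.29 and 5.68 ± 0.48 at days 0, 3, 7 and 28.

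The sialic acid-binding lectins were divided. Siglec1 (sialoadhesin, a macrophage lectin), Siglec5 and Siglec8 rose at day 3 by 2.69 ± 0.23, 1.92 ± 0.27 and 1.73 ± 0.31, whereas Siglec10 (0.43) and Siglec15 (-0.03) did not pass. Siglec5 was still higher at 1.62 ± 0.27 at day 7 and 1.09 ± 0.27 at day 28 (limma adjusted p = 0.0168), and its day 7 level did not differ from day 3 beyond the spread (-0.30, limma adjusted p = 0.548). Among the paired immunoglobulin-like type 2 receptors, Pilrb1l1, Pilrb2l1 and Pilrb2l3 rose at day 3 by 2.01, 1.42 and 1.30, and Pilrb2 was dim throughout. At day 7, 0 of 4 passed, where 16.9% of all genes rose and 14.9% fell. Of 4 myeloid Cd300 genes, a family with several receptors for lipids of dying cells, Cd300lb, Cd300lf and Cd300cl1 rose at day 3 by 1.36, 1.10 and 0.61. Cd300c2l1 was the 1 receptor that fell at day 3, by 0.80 at day 3 and 0.70 at day 7, with -0.67 at day 28 not passing (limma adjusted p = 0.00844, 0.0244 and 0.0745 in that order). Several Pilr, Cd300, Ly49, Klrc and Clec2 genes have near-identical relatives, so their probes may read more than 1 gene.

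Macrophage markers moved with the myeloid receptors. All 11 measured macrophage and monocyte markers rose at day 3 (median 3.77), all 11 at day 7 and 9 at day 28, and their summed linear level was 439 to 576 over the day 0 arrays, 8271 to 11366.5 over those of day 3, 3100 to 4667 over those of day 7 and 1079 to 1615 over those of day 28. Of 5 measured dendritic cell markers 3 rose at day 3. Of 9 measured neutrophil markers 1 rose, Csf3r (2.27 ± 0.34), with 9 of 9 dim at day 0 and 7 of 9 at day 3. Across all genes tested, 21.7% rose and 19.6% fell at day 3, and 16.9% and 6.29% rose at days 7 and 28. Among the remaining lists 2 of 5 mast cell, 1 of 3 platelet and 0 of 2 B cell markers rose at day 3, and 2 of 6 muscle fibre genes fell. The part of these cells in the receptor changes was not tested.

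Of the natural killer family, 6 of 20 receptors rose at day 3 (30%) and 7 of 20 at day 7 (35%), against 21.7% and 16.9% of all genes. At day 28 the share was 5%, near the 6.29% of all genes. Ly49si1, a Ly49 lectin, moved most. Its arrays read 1.86, 1.25, 1.31 and 1.84 at day 0, 7.27, 7.71, 6.95 and 7.72 at day 3, 6.14, 5.30, 5.15 and 4.54 at day 7, and 2.35, 1.68, 1.60 and 1.14 at day 28. Days 3 and 7 lay far above days 0 and 28, which overlapped each other. Ly49si1 differed from day 0 by 5.85 ± 0.30 at day 3, a 57.5-fold ratio against a dim day 0 value, by 3.71 ± 0.30 at day 7 and by 0.13 ± 0.30 at day 28 (limma adjusted p = 1.31e-10, 7.04e-08 and 0.852 in that order). Of the other 6 Ly49 genes, 1 rose at day 3 and 0 passed at day 7. That gene, Ly49i7, read 2.26, 2.77, 1.84 and 2.63 at day 0, 3.94, 3.18, 3.62 and 3.33 at day 3, 2.76, 3.06, 2.78 and 2.44 at day 7, and 2.54, 2.74, 2.04 and 2.93 at day 28. Day 3 lay above day 0, while days 7 and 28 overlapped it. It rose by 1.14 ± 0.23 at day 3 (limma adjusted p = 5.12e-04), against 0.39 ± 0.23 at day 7, which did not pass. A further cluster that the annotation lists for 4 Ly49si genes together was not counted as a member.

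Klra2, whose promoter matched that of Ly49si1 at 68.5% of aligned positions, was the 1 natural killer family gene called higher at day 28. In the mouse its namesake encodes Ly49B, which is found on myeloid cells. The arrays of Klra2 read 2.67, 3.53, 2.39 and 2.06 at day 0, 5.19, 5.54, 5.05 and 5.17 at day 3, 4.75, 5.13, 4.70 and 4.33 at day 7, and 4.45, 3.57, 5.12 and 3.52 at day 28. All day 3 and day 7 arrays lay above all day 0 arrays, and the lowest day 28 arrays met the highest day 0 array. Its differences were 2.58 ± 0.33 at day 3, 2.07 ± 0.33 at day 7 and 1.51 ± 0.33 at day 28 (limma adjusted p = 5.01e-06, 1.07e-04 and 0.00721 in that order).

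Klrc3, of the NKG2 group that pairs with CD94, rose at days 3 and 7. It read 1.92, 1.62, 1.64 and 1.73 at day 0, 4.23, 4.22, 3.68 and 3.87 at day 3, 4.59, 3.17, 3.31 and 3.73 at day 7, and 1.16, 1.06, 1.05 and 2.07 at day 28. Days 3 and 7 stood above days 0 and 28 with no overlap. The differences were 2.27 ± 0.27, 1.97 ± 0.27 and -0.39 ± 0.27 at days 3, 7 and 28 (limma adjusted p = 2.28e-06, 2.47e-05 and 0.429 in that order). A cluster listed for Klrc2 and Klrc3 together, not counted as a member, went the other way. It differed from day 0 by -0.58 ± 0.22 at day 3 and -0.46 ± 0.22 at day 7. Neither passed in a fit over all clusters (limma adjusted p = 0.0547 and 0.153). Klrk1 encodes NKG2D, the activating receptor for stress-induced ligands, which signals through Hcst. Its arrays read 2.53, 3.16, 3.08 and 2.51 at day 0, 4.26, 3.66, 3.28 and 4.10 at day 3, 4.54, 3.68, 3.49 and 4.30 at day 7, and 3.42, 3.40, 3.45 and 2.99 at day 28. Days 3 and 7 lay above day 0, and day 28 overlapped both day 0 and day 3. Klrk1 rose by 1.01 ± 0.25 at day 3 and 1.18 ± 0.25 at day 7 (limma adjusted p = 0.00318 and 0.00136), and with each array centred on all tested genes the day 3 difference was 0.54 and no longer passed (limma adjusted p = 0.0511).

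Klrb1b, the inhibitory NKR-P1B receptor whose ligands are Clec2 proteins, rose at days 3 and 7. It read 3.07, 2.86, 2.91 and 3.15 at day 0, 3.85, 4.16, 4.13 and 4.48 at day 3, 4.09, 3.58, 3.33 and 3.51 at day 7, and 2.67, 3.56, 3.12 and 3.31 at day 28. Days 3 and 7 lay above day 0 and overlapped each other. Klrb1b rose by 1.16 ± 0.19 at day 3 and 0.63 ± 0.19 at day 7 (limma adjusted p = 8.85e-05 and 0.0182), and the day 7 call was lost without replicate 1 of day 7 (0.47) and with each array centred on all tested genes. Klrc1 and Klrd1, which encode the NKG2A and CD94 chains of the inhibitory receptor for nonclassical class I molecules, passed at day 7 alone among the comparisons with day 0. Klrc1 averaged 4.18 ± 0.43 at day 7 and 3.21 ± 0.18 at day 0 (SD, n = 4 arrays each), a difference of 0.96 ± 0.19, and was also higher at day 7 than at day 3 by 0.69 ± 0.19 (limma adjusted p = 0.0181), a call not made in a fit of those 2 days alone. Klrd1 averaged 3.38 ± 0.63 at day 7 and 2.69 ± 0.33 at day 0 (SD, n = 4 arrays each), a difference of 0.70 ± 0.25 (limma adjusted p = 0.0394).

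**Figure D4:**
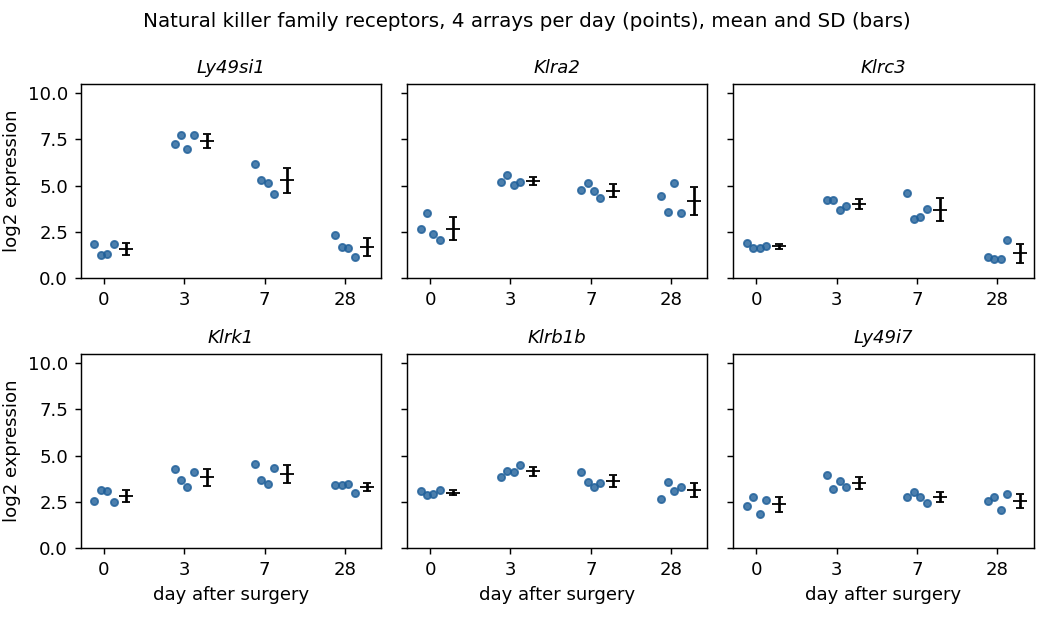
Log2 expression (vertical axis) by day after surgery (horizontal axis, days spaced evenly) for the 6 natural killer family genes with the largest differences against day 0. Points are the 4 arrays of a day and bars give mean and SD; Ly49si1 stands at 7.41 ± 0.37 at day 3 and 5.28 ± 0.66 at day 7, and is lower at days 0 and 28.

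The other 12 natural killer family genes, Klra1, Klra4, Klrb1, Klrb1a, Klre1, Klrg1, Klri2, Ly49i3, Ly49s4, Ly49s6, Ly49s7 and Ly49s8, passed at no day against day 0. Their differences at day 3 lay between -0.56 (Ly49s8) and 0.20 (Ly49i3). When each array was centred on all tested genes, 7 natural killer genes were called lower at day 3 and 4 at day 7, with 5 called higher at each day. Of 10 natural killer cell markers measured outside the family, 2 rose at day 3, Nkg7 (1.11 ± 0.27) and Cd7 (1.65 ± 0.27), 3 rose at day 7 with Gzmk added, and 0 passed at day 28, where 21.7%, 16.9% and 6.29% of all genes rose on those days. Ncr1, the defining marker NKp46, was dim and differed by 0.07 at day 3 and 0.45 at day 7, neither passing. Of the 10 markers 9, 8, 7 and 9 were dim at days 0, 3, 7 and 28, and their summed linear level was 59.6 to 68.8, 89.0 to 125, 100 to 131 and 56.2 to 91.3 on the arrays of those days. Cd7 had the highest values of the 10 (means of 4.04 at day 0 and 5.69 at day 3) and so weighs most in that sum. The sum is therefore not a measure of the markers as a set. T cells also use several Klr genes, and 3 of 9 T cell markers rose at day 3 and 6 of 9 at day 7. The part of either cell type in the Klr and Ly49 changes was not tested.

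Clec2 genes encode lectins displayed to Klrb1 receptors by many cell types. Of 8, 2 rose at day 3, which is 25% of them against 21.7% of all genes. At day 7, 1 rose and 1 fell (12.5% each), against 16.9% and 14.9% of all genes, and 0 passed at day 28. The Clec2 counts were thus near those of all genes. Clec2gl1 read 2.06, 4.43, 3.37 and 4.49 at day 0, 5.87, 6.35, 6.32 and 5.40 at day 3, 5.36, 5.05, 4.87 and 4.54 at day 7, and 5.05, 4.56, 5.03 and 4.77 at day 28. Every array of days 3, 7 and 28 lay above every array of day 0, which spread widely. Clec2gl1 rose by 2.40 ± 0.39 at day 3 and 1.37 ± 0.39 at day 7, and its 1.27 ± 0.39 at day 28 missed the threshold (limma adjusted p = 0.0537) and passed in 6 of 28 alternative settings. Clec2g read 6.83, 6.58, 6.90 and 6.75 at day 0, 7.68, 7.50, 7.82 and 7.50 at day 3, 6.98, 6.83, 7.63 and 7.04 at day 7, and 7.04, 7.42, 7.20 and 7.10 at day 28. Days 3 and 28 lay above day 0, and day 7 overlapped it. Clec2g rose by 0.86 ± 0.16 at day 3 (limma adjusted p = 2.43e-04), and days 7 (0.35) and 28 (0.43) did not pass. Clec2d2l1 was dim in all groups and read 1.07, 0.69, 0.83 and 1.17 at day 0, 0.92, 1.68, 2.93 and 1.36 at day 3, 1.09, 0.72, 1.08 and 0.83 at day 7, and 0.87, 1.31, 2.07 and 1.58 at day 28. Its arrays spread widely and overlapped between days, and it passed in no comparison as fitted. Its day 3 difference against day 0 (0.78) passed in 5 of 26 alternative settings, with loess, trend and robust priors, array weights or the fixed replicate block, and without replicate 1 of day 3 (1.05, limma adjusted p = 0.0128). Without that array the day 7 minus day 3 difference passed too (-1.06, limma adjusted p = 0.0307). Clec2d2l3 fell at day 7 by 0.43 (limma adjusted p = 0.0398), also at dim values. Clec2d, Clec2d2l2, Clec2e and Clec2ml1 passed in no comparison.

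Among the 13 other genes, Clec11a and Clec3b rose at all 3 days. Both encode secreted proteins rather than leukocyte receptors: Clec11a a growth factor for blood and bone progenitors, Clec3b the plasminogen-binding tetranectin. Clec11a read 3.92, 4.09, 4.64 and 3.52 at day 0, 6.35, 6.61, 6.46 and 6.88 at day 3, 7.57, 6.10, 6.61 and 6.88 at day 7, and 5.17, 5.34, 4.70 and 4.82 at day 28. Days 3 and 7 lay above day 28, which lay above day 0. Clec11a rose by 2.53 ± 0.27 at day 3, by 2.75 ± 0.27 at day 7 and by 0.97 ± 0.27 at day 28, and the last call (limma adjusted p = 0.0311) was lost under several alternatives. Clec3b read 5.15, 5.40, 4.99 and 5.80 at day 0, 6.84, 7.53, 6.92 and 6.90 at day 3, 7.24, 7.52, 7.43 and 7.09 at day 7, and 6.79, 6.85, 6.83 and 6.43 at day 28. Every array of days 3, 7 and 28 lay above every array of day 0. Clec3b rose by 1.71 ± 0.19, 1.99 ± 0.19 and 1.39 ± 0.19 at days 3, 7 and 28 (limma adjusted p = 1.16e-04 at day 28). For both the mean was highest at day 7, and the day 7 minus day 3 difference did not pass (0.22 and 0.27).

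The remaining 11 passed at no day against day 0. Clec3a, a cartilage lectin, read 1.74, 1.86, 2.04 and 2.65 at day 0, 1.50, 1.35, 1.66 and 2.02 at day 3, 1.98, 2.55, 2.23 and 1.41 at day 7, and 1.77, 1.86, 2.17 and 2.06 at day 28. It was dim throughout and its days overlapped. Its day 3 difference against day 0 (-0.44) did not pass as fitted, and Clec3a was called lower with each array centred on all tested genes (-0.90, limma adjusted p = 0.00257) or on the brighter 50% of them (-0.60, limma adjusted p = 0.0448). Clec1a and Clec14a, lectins of endothelial cells, were -0.39 and -0.22 at day 3, without passing, and were higher at day 28 than at day 3 by 0.65 and 0.56. Of 4 measured endothelial markers 3 fell and 1 rose at day 3 against day 0, where 19.6% of all genes fell and 21.7% rose. The marker that rose, Tie1, differed by 0.67 ± 0.19. At day 28 against day 3, 3 of the 4 markers were higher, where 15.9% of all genes were, and Tie1 did not pass (-0.40). The part of endothelial cells in the Clec1a and Clec14a values was not tested. The others, Cd300lg, Clec4f, Clec4g, Clec4m, Clec12b, Clec18a, Klrg2 and Treml1, passed in no comparison.

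Most of the receptors that fell after day 3 were myeloid. At day 7 against day 3, 24 receptors fell and 1 rose, where 9.23% of all genes fell and 6.02% rose. The falls were 21 of 36 myeloid, 2 of 20 natural killer (Ly49si1 and Ly49i7) and 1 of 8 Clec2 genes, and the rise was Klrc1. The natural killer share of falls, 10%, was near that of all genes. The Ly49i7 call was lost in 8 of 27 alternative settings, and that of the Clec2 gene, Clec2g, in 12 of 28. Of the 28 myeloid receptors higher at day 3 than at day 0, 20 were lower at day 7 than at day 3 by the test and 27 by their mean. The 28 were picked on the same day 3 arrays, which favours a later fall in advance. Without that selection, the median of the day 7 minus day 3 difference was -0.96 over all 36 myeloid receptors. It was -0.12 over the 20 natural killer receptors. Lilrb4 fell by 2.12, Clec4d by 2.30 and Clec4a3 by 1.75, and the exception by mean was Treml2 (0.09).

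At day 28 against day 7, 17 receptors fell and 1 rose, where 9.38% of all genes fell and 8.24% rose. The falls were 12 myeloid, 3 natural killer (Ly49si1, Klrc3 and Klrc1) and 2 other genes, of which Clec3b lost its call in 9 of 28 alternatives, and the rise was Clec1a. Ly49si1 fell by 3.59, Lilrb4 by 2.49 and Clec4a3 by 1.98. At day 28 against day 3, 35 receptors fell and 2 rose, where 16.8% of all genes fell and 15.9% rose. These were 27 of 36 myeloid, 5 of 20 natural killer, 2 of 8 Clec2 and 1 of 13 other genes, with medians of -1.23 (myeloid) and -0.14 (natural killer) against 0.02 over all genes. Both Clec2 calls depended on the setting: that of Clec2g was lost in 12 of 28 alternatives and that of Clec2gl1 in 9 of 28, with limma adjusted p = 0.288 and 0.0664 under all-gene centring. The fall of Klra2 was lost without replicate 2 of day 3 (-0.97), replicate 2 of day 28 (-0.87) or replicate 4 of day 28 (-0.86). Of the 28 myeloid receptors that had risen at day 3, 25 were lower at day 28 than at day 3. That count too is favoured by selecting on the day 3 arrays. Of the 28, 6 were still higher at day 28 than at day 0. These comparisons share arrays with each other and with those against day 0.

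The adaptors through which the receptors signal changed in the same samples. Of 14 adaptors and signalling proteins measured, 11 rose and 2 fell at day 3, 10 rose and 2 fell at day 7, and 4 rose and 1 fell at day 28. Of all genes tested, 21.7%, 16.9% and 6.29% rose and 19.6%, 14.9% and 2.8% fell at days 3, 7 and 28. Tyrobp, the adaptor of Trem1, Trem2 and Clec5a, rose by 4.83 ± 0.20 at day 3 and 1.25 ± 0.20 at day 28. Fcer1g, the adaptor of Clec4d and Clec4e, rose by 4.21 ± 0.18 and 1.12 ± 0.18 on those days. Vav1 and Blnk, which act downstream, rose by 4.02 ± 0.24 and 3.94 ± 0.23 at day 3. Hcst, the adaptor of Klrk1, rose by 0.82 ± 0.31 at day 3 and 0.96 ± 0.31 at day 7. The inhibitory phosphatase Ptpn6 rose by 3.70 ± 0.18 at day 3 and Inpp5d by 2.71 ± 0.27, whereas Ptpn11, which most cell types express, fell by 1.11 and Malt1 by 0.81. Hcst and these phosphatases were named after their values were seen.

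Of 12 ligands of the receptors measured, which include the receptor gene Clec2d, 4 rose and 2 fell at day 3, where 21.7% of all genes rose and 19.6% fell. At day 7, 2 rose and 2 fell (16.9% and 14.9% of all genes), and at day 28, 2 rose and 0 fell (6.29% and 2.8%). Apoe, a ligand of Trem2, rose by 3.98 ± 0.19 at day 3 and 1.55 ± 0.19 at day 28, and Pdpn, the ligand of the platelet lectin Clec1b, rose by 4.08 ± 0.18 and 1.70 ± 0.18 on those days. Cd24, a ligand of Siglec10 in human and mouse, fell by 1.12 at day 3, and Raet1e, of the NKG2D ligand family, fell by 1.17. Cd200, the ligand of Cd200r1, did not pass at any day (0.09 at day 3), and was named for that pairing after its values were seen.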

How the data were processed

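Total RNA of 16 plantaris samples was hybridised to 1 Rat Gene 2.1 ST array each, 4 arrays per day. The deposited log2 values are the authors' RMA values per transcript cluster, and the submitters' processing notes name oligo, RMA and limma without versions. All 16 value columns were mapped to samples by their labels. Neither a genome build nor an annotation release is stated there. No normalization was added. Of 36685 clusters, 15653 were listed in the platform annotation, 14824 of them with 1 symbol and 829 with several. Clusters with several symbols or none were left out of the tests, and for 234 genes with several clusters the brightest was kept, which left 14557 genes. None of the 77 receptors was among those 234.

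A model with 1 mean per day was fitted to all 16 arrays with limma 3.58.1 in R 4.3.3 (12 residual and 4.99 prior degrees of freedom, moderated variances without trend), and 6 contrasts between days were tested, two-sided, with Benjamini-Hochberg adjustment over all genes within each contrast and a threshold of 0.05. The script was tested on simulated data. Differences are log2, so folds are ratios of geometric means. Depth has no meaning for arrays, and their number limits the precision. RMA compresses differences between dim clusters.

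The members, classes, marker, adaptor and ligand lists and promoter motifs were chosen with earlier results of these data known. Values per array are given for the 8 myeloid, 6 natural killer, 3 Clec2 and 3 other genes with the largest difference against day 0, other receptors by mean, difference or count, and up to 4 called genes of each list. Arrays sharing a replicate number did not deviate together (correlations of -0.0355 to 0.0916, 0 of 24 over 0.1), and the main fit did not pair them. The labels do not say what the numbers stand for, and such correlations cannot show that they carry no pairing. Alternatives were other centrings, cyclic loess, dimness filters, array weights, trend and robust priors, replicate blocks, other sets of clusters or arrays in the fit, and leaving out each array. A search for inhibitory motifs in the proteins was planned and not run, since no protein sequences were used here. Scripts read sequences from RefSeq (GRCr8).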

Additional observations from a re-analysis of the deposited data

Results flagged for a closer look

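In 5 of the 80 groups of 4 arrays screened (20 genes on 4 days), 1 array stood apart from the other 3 by Dixon's criterion, which chance gives in about 1 of 20 groups. For Trem2 it was replicate 4 of day 0, at 4.04 against 4.72 to 4.77, and for Klrc3 replicate 4 of day 28, at 2.07 against 1.05 to 1.16. Klrk1 also had its outlying array in replicate 4 of day 28, at 2.99 against 3.40 to 3.45. Clec3b had 2 such arrays, replicate 2 of day 3 at 7.53 against 6.84 to 6.92 and replicate 4 of day 28 at 6.43 against 6.79 to 6.85.

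The 4 clusters listed for several symbols of these families lie outside the 77 receptors, and 2 of the 4 were higher at day 3 than at day 0 in a fit over all clusters. Of 2 clusters shared by Clec2dl1 and Clec2d2, 1 differed by 1.67 ± 0.47 (SE, limma adjusted p = 0.0124), and the other, at 1.08 ± 0.59 (SE, limma adjusted p = 0.186), did not pass. The cluster shared by Ly49si1l1, Ly49si2, Ly49si3 and Ly49si4-ps1 differed by 1.28 ± 0.20 (SE, limma adjusted p = 1.52e-04). Which of the listed genes gave either signal cannot be told apart.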

How the results depend on the processing

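Of 120 differences of the 20 genes given per array, 79 passed the threshold, and of their 2182 values under 28 alternative settings 2115 kept direction and call, 67 kept direction and lost the call, and 0 changed sign; the other 41 gave 1059 unchanged values, 22 that passed and 25 that changed sign. Calls were lost in 12 settings for Clec2g at day 7 and at day 28 against day 3, in 9 for Clec2gl1 at day 28 against day 3 and Clec3b at day 28 against day 7, in 8 for Clec11a at day 28 against day 0 and Ly49i7 at day 7 against day 3, in 3 for Klra2 at day 28 against day 3 and Trem2 at day 28 against day 0, in 2 for Klrb1b at day 7 against day 0 and in 1 for Klrk1 at day 3 against day 0. Calls were gained in 6 for Clec2gl1 at day 28 and 5 for Clec2d2l1 at day 3 against day 0, in 2 each for Clec3a at day 3 against day 0 and Klrb1b and Clec2gl1 at day 7 against day 3, and in 1 each for Cd200r1 and Clec2g at day 28 against day 0, Clec2d2l1 at day 7 against day 3, and Klrk1 at day 28 against days 3 and 7. Most receptors are dim, which limits what the arrays resolve. The cause of the changes below was not tested unless the setting itself shows it.

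Leaving out the dimmest 50% of genes removes most receptors from the fit, and the receptors called were then 14 at day 3 and 13 at day 7 against day 0, 8 at day 7 against day 3, 8 at day 28 against day 7 and 13 at day 28 against day 3. Myeloid receptors called higher were then 9 at day 3 and 9 at day 7 against day 0, and those called lower 7, 6 and 9 in the 3 later comparisons and 1 at day 28 against day 0, a count of 1 also given by trend and robust priors. With arrays centred on all tested genes, higher calls were 18.2% of all calls at day 3, against 52.5% as reported, 37.7% with centring on the brighter 50% of genes and 53% with loess. The all-gene median moved from -0.05 to -0.51 at day 3, and was -0.40 at day 7 and -0.26 at day 28 under that centring. Under it the myeloid receptors called lower were 3, 3 and 2 on days 3, 7 and 28 against day 0, and natural killer receptors called lower 7 and 4 at days 3 and 7. Natural killer receptors called higher were then 3 at day 7 against day 3, 1 at day 28 against day 7 and 2 at day 28 against day 3, and 1 was called lower at day 7 against day 3, a count of 1 also given by array weights and by all clusters in the fit. Centring on the brighter 50% of genes gave 1 natural killer receptor lower at day 3 and 1 at day 7 against day 0, 3 higher at day 7 against day 3 and 1 higher at day 28 against day 3. Fitting only the compared groups gave 1 lower at day 7 against day 0 and 0 higher at day 7 against day 3.

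The replicate number as a fixed block gave 41, 28 and 8 receptors called against day 0 on days 3, 7 and 28, with 1 natural killer receptor lower at day 7; as a random block (correlation 0.00736) it gave 39, 27 and 9. Leaving out 1 array gave 38 to 42, 21 to 31 and 6 to 10 receptors called against day 0 on days 3, 7 and 28, 20 to 25 at day 7 against day 3, 15 to 18 at day 28 against day 7 and 27 to 37 at day 28 against day 3. Myeloid receptors lower ranged over 0 to 2 at day 7 and 0 to 1 at day 28 against day 0. Natural killer receptors lower ranged over 0 to 1 at day 3 and at day 7 against day 0, 1 to 3 at day 7 against day 3 and 3 to 5 at day 28 against day 7, and those higher over 0 to 3 at day 7 against day 3 and 0 to 1 at day 28 against day 3.

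Sign changes touched uncalled differences. With arrays centred on all genes, the day 28 difference against day 0 became -0.0535 for Clec4a2, -0.126 for Ly49si1, -0.0861 for Klrb1b and -0.0627 for Ly49i7, Clec2g at day 7 against day 0 became -0.00516, and at day 28 against day 7 Clec2gl1 became 0.00469 and Clec3a 0.0317. Loess gave 0.184 for Clec2d2l1 and 0.0773 for Clec3a at day 7 against day 0. Leaving out 1 array gave -0.0977 to 0.0638 for Clec2d2l1 and -0.203 to 0.179 for Clec3a at day 7 against day 0, and -0.0934 to 0.310 for Ly49si1 and -0.219 to 0.0848 for Clec3a at day 28 against day 0. It gave -0.00627 to 0.347 for Klrk1 and -0.0423 to 0.446 for Clec11a at day 7 against day 3, and -0.533 to 0.137 for Clec2d2l1 at day 28 against day 3. At day 28 against day 7 it gave -0.242 to 0.0336 for Clec2gl1, -0.0243 to 0.242 for Clec2g and -0.287 to 0.0956 for Clec3a. Averaging several clusters of a gene leaves every receptor as it was, since each has 1. The search for inhibitory motifs in the proteins and its alternative were not run.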
